A study of Mus musculus with 16 samples.

Results

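The interferon response and its kinase PKR, encoded by Eif2ak2, were followed in lung adenocarcinomas and their metastases. The set was given as 34 genes by symbol, each measured at the probe sets annotated to that gene alone, with the brightest probe set by mean log2 intensity over all tumors standing for the gene. By this rule 30 genes were measured, with 43 probe sets, out of 12393 genes and 22626 probe sets on the array. Isg15, Ifi27, Ifi44 and Xaf1 had no probe set of their own and were not analysed here, Isg15 because its only probe set carries a second symbol. Eif2ak2 was set against the other 29 genes.

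The study asked which transcripts separate metastases from the primary lung tumors of the same animals. Each of 16 tumors was hybridized to 1 Affymetrix Mouse 430A 2.0 array, which reports the intensity of short oligonucleotide probe sets on a linear scale. The groups were 9 metastases, the 4 primary tumors of the same mice (mice 1 to 4), and 3 primary tumors of mice 5 to 7 that have no profiled metastasis. All 7 mice carried the same genotype, p53R172HΔg/+ K-rasLA1/+, with both alleles heterozygous. It joins a knock-in missense allele of p53 with a latent oncogenic K-ras allele that becomes active by chance in single somatic cells. Mice 1 to 5 and mouse 7 were male and mouse 6 was female, and the sources used here give no age or strain. There were no wild-type or normal lung samples. The metastases came from the liver and 2 body wall sites (inguinal and subcutaneous) of mouse 1, the liver of mouse 2, the subcutaneous body wall, heart and mediastinal lymph node of mouse 3, and the mediastinal lymph node and parietal pleura of mouse 4. Metastases of 1 mouse share 1 primary tumor, so the independent animals of the paired comparison are 4 mice.

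The tumors were dissected tissue pieces, in which fewer cells of a type and less RNA per cell cannot be told apart. Array medians lay between 75 and 85.5. Summed over the 6 epithelial markers (keratins, Epcam and Cdh1), intensities reached 3997 to 12753 in metastases, against 8667 to 14922 in the matched primary tumors. Most of this sum was Krt8 and Krt18, which were at 1365 or above in every tumor. All 6 markers had differences below 0 (median −0.82), none at an adjusted p of 0.05, and Epcam was lower in 9 of 9 (−2.38, adjusted p = 0.131 from limma), at 41.7 in the heart metastasis against 934 in its primary tumor. Organ markers were high in single metastases: the heart and muscle sum was 2914 in the heart metastasis and at most 1174 elsewhere, and the liver sum was 4676 to 7869 in the 4 tumors of the liver (mice 1 and 2) and the body wall of mouse 1, at most 1817 elsewhere.

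Interferons are cytokines released when a cell senses viral nucleic acid or, in immune cells, a danger signal. Type I interferons act through a receptor that activates a complex with STAT2 and IRF9, which binds the interferon-stimulated response element (ISRE) and switches on antiviral genes. Interferon gamma acts through the gamma-activated site (GAS) and drives the large and small immunity GTPases. PKR is one product of this program: it binds double-stranded RNA and phosphorylates the translation factor eIF2 alpha, which slows protein synthesis, and it is present at a basal level without interferon.

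The response elements of 4 genes on which the results turn are shown first, from the RefSeq promoter table (GRCm38.p6; 250 bases before to 50 after the start). Each stretch of 30 bases runs 5′ to 3′ on the strand of the gene, with 1 ISRE match in capitals. The match is GAAA, any 2 bases, then GAAA, or its reverse complement where it lies on the opposite strand. Eif2ak2 is the gene that rose in metastases, Ifih1 is the member with the next smallest p-value, and Igtp and Gbp3 are GTPases that stood high in 1 primary tumor. They lie on the minus strand (Eif2ak2, chr17:78882535-78882564; Ifih1, chr2:62646206-62646235) and on the plus strand (Igtp, chr11:58199512-58199541; Gbp3, chr3:142559989-142560018).
Eif2ak2: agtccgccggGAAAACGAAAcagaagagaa
Ifih1: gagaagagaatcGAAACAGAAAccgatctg
Igtp: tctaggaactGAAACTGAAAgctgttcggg
Gbp3: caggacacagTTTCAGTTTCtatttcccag

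The Eif2ak2 match begins 19 bases into the transcript and the Ifih1 match 33 bases into it, whereas those of Igtp and Gbp3 begin 34 and 45 bases upstream of the start. The Gbp3 stretch holds a second match, at −39 from the start, which overlaps the one in capitals and is not marked. A promoter window was at hand for 26 of the 34 genes. The ISRE letters, searched on both strands, were found in 14 of the 26 (53.8%), against 3.99% of the 27025 genes in the table. The GAS letters TTCNNNGAA were found in 11 of the 26 (42.3%), against 9.55% of all genes. Eif2ak2, Oas1a, Bst2, Ifitm3 and Igtp held both. Of the 23 ISRE matches in the 34 genes, 2 overlapped a GAS match and 11 overlapped another ISRE match. A match is a string of letters and not a shown binding site.

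Eif2ak2 was higher in metastases and was the only one of the 30 genes to pass an adjusted p of 0.05. In mouse 1 it stood at 265, 186 and 216 in the inguinal, subcutaneous and liver metastases, against 36.5 in the primary tumor. In mouse 2 it stood at 188 in the liver metastasis, against 65.1 in the primary tumor. In mouse 4 the lymph node and pleural metastases had 197 and 191, against 70.7 in the primary tumor. Within each of these 3 mice every metastasis lay well above its primary tumor. Mouse 3 differed in level, with 419, 326 and 337 in the body wall, heart and lymph node metastases, against 223 in the primary tumor. The primary tumor of mouse 3 exceeded 5 of the 9 metastases, so the groups overlapped through this tumor alone, and all 9 metastases exceeded the primary tumors of mice 1, 2 and 4.

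**Figure D1:**
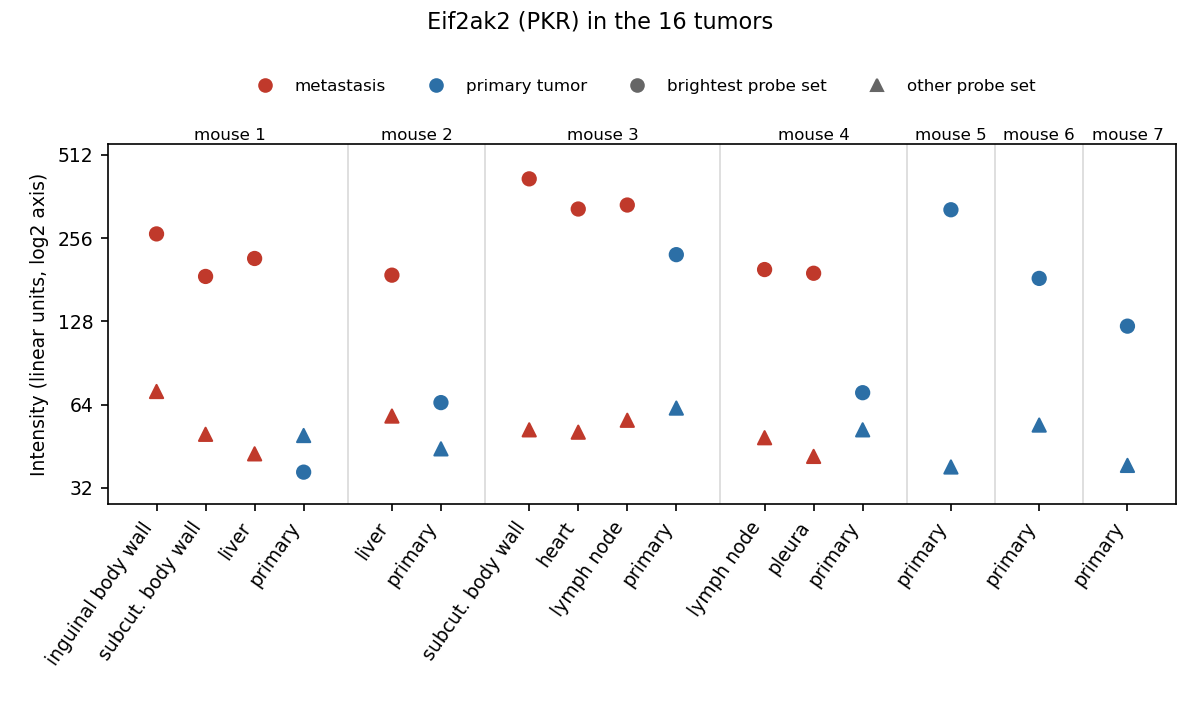
Intensity of Eif2ak2 (linear units on a log2 axis) in each of the 16 tumors, by mouse, with metastases in red and primary tumors in blue. At the brightest probe set (circles) all 9 metastases lie above the primary tumor of their own mouse, while the other probe set (triangles) stays between 38.1 and 71.4 in every tumor.

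Averaged, Eif2ak2 was at 258 ± 84.4 in metastases (SD, n = 9) and 98.9 ± 84.3 in matched primary tumors (SD, n = 4). The fit with the mouse as a block gave a log2 difference of 1.57 (SE 0.26), a 2.97-fold rise (adjusted p = 0.0414 from limma, Benjamini-Hochberg over 22626 probe sets), higher in 9 of 9 metastases. Of all probe sets, 0.0133% passed as higher. The difference was the 15th largest among the 12393 genes and its p the 53rd smallest among the probe sets. Eif2ak2 is one of the genes that the study itself singled out on these same tumors, so its rise is not independent evidence. Single metastases ranged from 1.46-fold (heart, mouse 3) to 7.27-fold (inguinal body wall, mouse 1), and the mean log2 ratio was 2.59 in mouse 1, 1.53 in mouse 2, 0.68 in mouse 3 and 1.46 in mouse 4. The mean ratios ran in the reverse order of the primary tumor levels, which each ratio contains, while the metastases all lay between 186 and 419.

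The call lay close to the threshold. It was lost without any 1 of 8 metastases (adjusted p = 0.0533 to 0.141) and kept only without the heart metastasis of mouse 3 (adjusted p = 0.0481), with differences of 1.50 to 1.62. Without any 1 of the 4 mice the difference was 1.17 to 1.92 (adjusted p = 0.0839 to 0.208), the lowest without mouse 1 and the highest without mouse 3. With 1 mean ratio per mouse it was 1.56 (adjusted p = 0.368), and without the block 1.66 (adjusted p = 0.165).

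A second probe set of Eif2ak2 did not show the rise. It gave 41.6 to 71.4 with a median of 50.9 in metastases, against 49.5 (mouse 1), 44.3 (mouse 2), 62.2 (mouse 3) and 51.9 (mouse 4) in primary tumors. The groups overlapped over their whole range. The log2 difference was −0.01 (SE 0.15, adjusted p = 0.987 from limma), with 3 of 9 metastases higher. Its mean over the 16 tumors was 50.6, against 209 for the brightest probe set. Which part of the transcript each probe set reads was not given in the sources used here, and the disagreement between them was not resolved.

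The 3 primary tumors without a profiled metastasis were not low in Eif2ak2. They had 324, 183 and 123 in mice 5, 6 and 7, against 36.5, 65.1, 223 and 70.7 in mice 1, 2, 3 and 4. All 3 exceeded the primary tumors of mice 1, 2 and 4, and that of mouse 5 was within the range of the metastases. The log2 difference of mice 5 to 7 minus mice 1 to 4 was 1.31 (SE 0.64, adjusted p = 0.303 from limma), which was not past the threshold. Over all 16 tumors, with the mouse as a random block, Eif2ak2 was higher in metastases by 1.19 (SE 0.34), and this did not pass either (adjusted p = 0.1 from limma). No gene of the 30 passed over 16 tumors, where 1.24% of all probe sets did, and 3 had an unadjusted p under 0.01, where 5% did. None had all 9 metastases above all 7 primary tumors (0.0575% of all probe sets) or below them (0.318%). Without the primary tumor of mouse 5 the 16-tumor difference was 1.38 and passed (adjusted p = 0.0492).

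None of the other 29 genes passed the test. Their median log2 difference was −0.16, against −0.01 over all genes, with 8 above 0 and 21 below 0. Thus 27.6% were above 0, where 47.9% of all genes were. They ranged from −1.05 (Bst2) to 0.16 (Ifi202b), and 24 lay within 0.5 of 0. At an adjusted p of 0.05 in limma, 0.354% of all probe sets passed in either direction, and 1 of the 30 genes did. At an unadjusted p under 0.01, the 30 genes had 1 higher (Eif2ak2) and 1 lower (Ifih1), where 1.14% of all probe sets were higher and 2.84% lower. The median absolute difference was 0.16 for the 29 genes, against 0.17 for all genes.

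**Figure D2:**
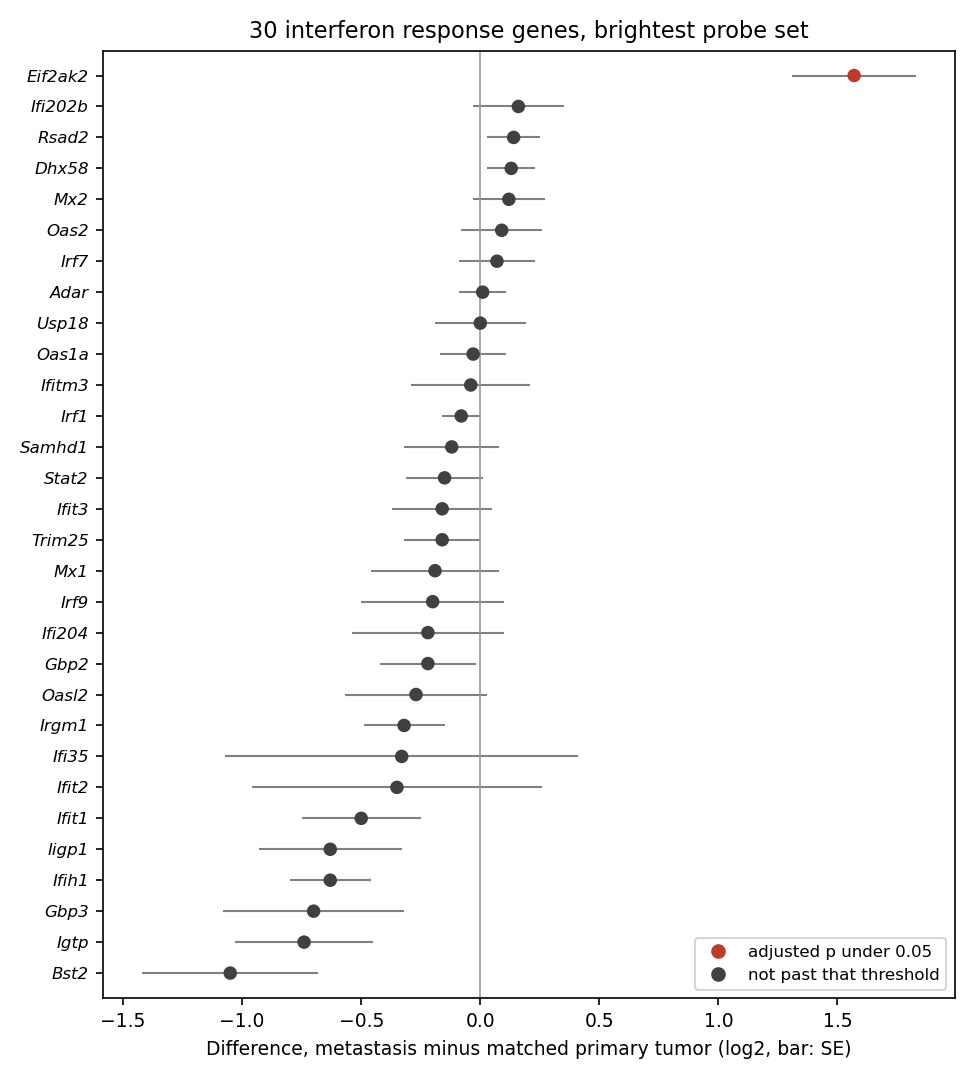
Log2 difference of metastases minus matched primary tumors (paired limma fit, bar: SE) for the 30 measured genes, in order of size. Eif2ak2 (1.57, red) stands apart from the other 29, which lie between −1.05 and 0.16.

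Set side by side in each metastasis, the log2 ratio of Eif2ak2 was 2.86, 2.35 and 2.57 in the inguinal, subcutaneous and liver tumors of mouse 1, where the other 29 genes had medians of 0.03, −0.21 and 0.05. It was 1.53 in the liver metastasis of mouse 2, against a median of −0.20. In mouse 3 it was 0.91, 0.55 and 0.59 in the body wall, heart and lymph node metastases, against medians of −0.14, −0.49 and −0.15. In mouse 4 it was 1.48 in the lymph node and 1.43 in the pleura, against medians of 0.04 and −0.04. Eif2ak2 thus had the highest ratio of the 30 genes in 6 of the 9 metastases. In the heart and lymph node metastases of mouse 3 it ranked 2 and 4, and in the lymph node metastasis of mouse 4 it ranked 2.

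**Figure D3:**
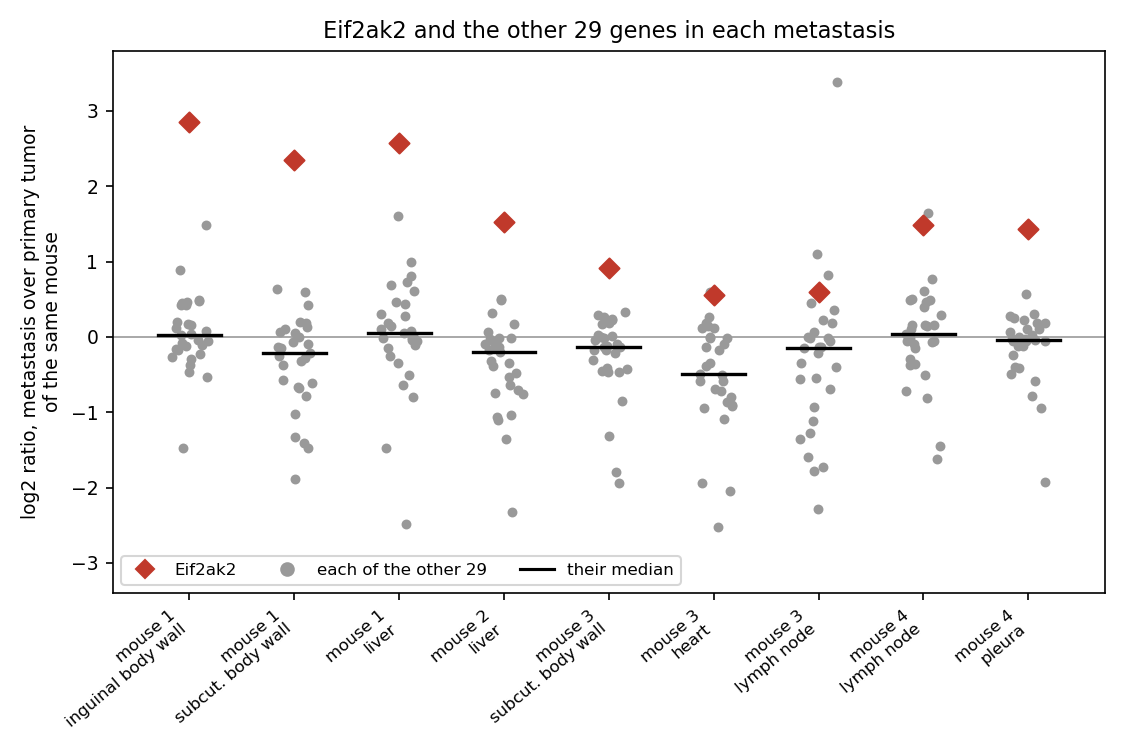
Log2 ratio of each metastasis over the primary tumor of its own mouse, for Eif2ak2 (red diamonds), each of the other 29 genes (grey points, spread sideways for clarity) and the median of those 29 (black bars). Eif2ak2 lies between 0.55 and 2.86, while the medians lie between −0.49 and 0.05.

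Many of these genes were dim or nearly flat on this array, which bears on how a small difference reads. Of the 30, 6 had a mean under 24.3, the 25th percentile of all values, and 5 (among them Bst2 and Ifi35) were under it in all 16 tumors. A floor of 1 was applied before the log2 step, and the ratios of such genes depend on it. At the other end, 19 genes reached that percentile in every tumor, and in 9 of these the highest tumor was under 2 times the lowest. Among them were Irf1 (1.45 times), Adar (1.37 times), Rsad2 (1.5 times) and Oas1a (1.61 times), while Eif2ak2 spanned 11.5 times.

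Among the sensors of foreign RNA, Ifih1, which encodes the double-stranded RNA helicase MDA5, gave the most regular difference. It had 126, 93.3 and 116 in the inguinal, subcutaneous and liver metastases of mouse 1, against 148 in its primary tumor, and 83.2 in the metastasis of mouse 2, against 129. In mouse 3 it had 102, 72.3 and 56.8 in the body wall, heart and lymph node metastases, against 138 in the primary tumor. In mouse 4 the lymph node and pleural metastases had 68 and 84.2, against 112. The unmatched primary tumors of mice 5, 6 and 7 had 142, 138 and 96.2. Every metastasis lay below its own primary tumor, and the matched groups overlapped only through the inguinal and liver metastases of mouse 1. The log2 difference was −0.63 (SE 0.17, adjusted p = 0.172 from limma), and over 16 tumors −0.59 (adjusted p = 0.0635), neither past the threshold. The methods' t-test, which treats the 9 ratios as independent, gave an adjusted p of 0.0253.

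Its direction is opposite to that of Eif2ak2 although both proteins bind double-stranded RNA. Ifih1, Bst2 and Irf1 were the 3 genes lower in 9 of 9 metastases, where 3.6% of all probe sets were, and Eif2ak2 the only gene higher in 9 of 9, where 1.81% were. Dhx58, the helicase LGP2 that modulates MDA5, was 69.7 to 103 in metastases (median 86.4), against 72.4 to 88 in matched primary tumors, a difference of 0.13 (adjusted p = 0.701). Adar, the editing enzyme that marks self double-stranded RNA, differed by 0.01 (SE 0.10, adjusted p = 0.988). Samhd1, a hydrolase of deoxynucleotides that restricts retroviruses, differed by −0.12 (adjusted p = 0.871), and its next brightest probe set by −0.34 (adjusted p = 0.258), lower in 9 of 9.

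The transcription factors and regulators of the response were close to level. Irf1, the factor shared by both interferon types, was 394 to 454 in metastases (median 425), against 456 (mouse 1), 429 (mouse 2), 429 (mouse 3) and 464 (mouse 4) in primary tumors. It was lower in 9 of 9 metastases by only 0.08 (difference −0.08, SE 0.08, adjusted p = 0.79 from limma), which is 1 SE. Stat2 and Irf9, which carry the type I signal, differed by −0.15 (SE 0.16) and −0.20 (SE 0.30). Irf7, the amplifier of interferon production, differed by 0.07 (SE 0.16), Trim25, the ubiquitin ligase upstream of RIG-I, by −0.16 (SE 0.16), and Usp18, which removes ISG15 and dampens the receptor, by 0.00 (SE 0.19). Adjusted p-values of these genes were 0.77 or above.

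The antiviral effectors gave no common direction. Ifitm3, a membrane protein that blocks viral entry and the brightest of the 30 genes, had 413, 326 and 622 in the inguinal, subcutaneous and liver metastases of mouse 1, against 406 in the primary tumor, and 393 in mouse 2, against 666. It had 714, 858 and 1221 in the body wall, heart and lymph node metastases of mouse 3, against 568, and 460 and 398 in the lymph node and pleura of mouse 4, against 594. The primary tumors of mice 5, 6 and 7 had 457, 751 and 334. It was higher than the primary tumor in all 3 metastases of mouse 3 and lower in those of mice 2 and 4. The difference was −0.04 (SE 0.25, adjusted p = 0.973 from limma).

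Ifit1, which binds viral RNA ends, differed by −0.50 (SE 0.25, adjusted p = 0.504) and was lower in 8 of 9 metastases. Ifit2 and Ifit3 of the same family differed by −0.35 (SE 0.61) and −0.16 (SE 0.21). The oligoadenylate synthetases, which activate RNase L, differed by −0.03 (Oas1a), 0.09 (Oas2) and −0.27 (Oasl2). The dynamin-like Mx1 and Mx2 differed by −0.19 and 0.12. No adjusted p of these genes was under 0.504.

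Rsad2, or viperin, which makes a chain-terminating nucleotide, was the next highest of the 29 after Ifi202b. It had 195, 221 and 203 in the inguinal, subcutaneous and liver metastases of mouse 1, against 206, and 218 in mouse 2, against 154. It had 195, 173 and 198 in the body wall, heart and lymph node metastases of mouse 3, against 173, and 228 and 198 in the lymph node and pleura of mouse 4, against 204, and mice 5, 6 and 7 had 222, 152 and 163 in primary tumors. The groups overlapped, with 5 of 9 metastases higher, and the difference was 0.14 (SE 0.11, adjusted p = 0.683 from limma). Its next brightest probe set gave −0.13 (adjusted p = 0.762).

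Bst2, or tetherin, which holds budding virions at the cell surface, had the lowest difference. It read 10.6, 4.5 and 2.12 in the inguinal, subcutaneous and liver metastases of mouse 1, against 11.9 in the primary tumor, and 1.75 in the metastasis of mouse 2, against 3.76. It read 3.98, 2.66 and 2.04 in the body wall, heart and lymph node metastases of mouse 3, against 4.39, and 1 and 1.57 in the lymph node and pleura of mouse 4, against 2.72. All 9 were lower, but every value was far under the 25th percentile of the array, and the primary tumors of mice 5, 6 and 7, at 1.71, 2.67 and 2.03, lay within the range of the metastases. The difference was −1.05 (SE 0.37, adjusted p = 0.308 from limma).

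The immunity GTPases, which interferon gamma induces most strongly and which attack the membranes of vacuoles that hold parasites, were highest in the same primary tumor for all 5 genes. Gbp3 had 23.2, 10 and 26.9 in the inguinal, subcutaneous and liver metastases of mouse 1, against 25.2, and 24 in mouse 2, against 33.5. In mouse 3 it had 34.7, 23.2 and 40.2 in the body wall, heart and lymph node metastases, against 133 in the primary tumor. In mouse 4 it had 33.9 and 29.9 in the lymph node and pleura, against 24.2. Igtp had 40, 32 and 34.7 in mouse 1 (same order), against 41.3, and 32.9 in mouse 2, against 55.1. It had 38.7, 25.1 and 19.6 in mouse 3, against 96.1, and 27.6 and 41.5 in mouse 4, against 35.4. In the primary tumors of mice 5, 6 and 7, Gbp3 was at 33.4, 45.1 and 29.3 and Igtp at 33.8, 47.6 and 36.5. Both genes stood highest in the primary tumor of mouse 3. The metastases and matched primary tumors overlapped with that tumor and without it.

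Igtp differed by −0.74 (SE 0.29, adjusted p = 0.368 from limma), Gbp3 by −0.70 (SE 0.38, adjusted p = 0.55), Iigp1 by −0.63 (SE 0.30, adjusted p = 0.467), Irgm1 by −0.32 (SE 0.17, adjusted p = 0.543) and Gbp2 by −0.22 (SE 0.20, adjusted p = 0.745). Without mouse 3 the differences were −0.31 for Igtp, −0.16 for Gbp3, −0.14 for Iigp1 and −0.04 for Gbp2 and so closer to 0, while Irgm1 was at −0.26. Irgm2, a GTPase outside the 34 genes, differed by −0.94 (SE 0.29, adjusted p = 0.235), and it too was highest in the primary tumor of mouse 3, at 67.7, with at most 34.2 elsewhere. The other 3 immunity GTPases of the same list did not have this order. Ifi47 read 77.8 in that tumor, against 84.6 in the primary tumor of mouse 5, Gbp6 read 21.6, against 41.4 in that of mouse 6, and Gbp7 read 161, against 208 in the lymph node metastasis of mouse 4.

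The primary tumor of mouse 3 was the highest of the 16 tumors for 7 of the 30 genes, namely Gbp2, Gbp3, Iigp1, Igtp, Irgm1, Oas1a and Irf7, where 5.26% of all probe sets were highest in that tumor. Iigp1 was at 384 there, against 79.6 to 271 in the other 15 tumors, and Gbp2 at 131, against 41.7 to 107. For Oas1a (60.4, next 56.1) and Irf7 (72.6, next 70.4) the gap to the next tumor was small. The dimmer probe sets of 2 of the GTPases gave the same order, with 57.4 for Gbp2 and 41.9 for Iigp1 in the primary tumor of mouse 3, against at most 29.9 and 13.1 in any other tumor. The median of the 5 GTPases, relative to their means over the 16 tumors, was 1.36 log2 units in that tumor, 0.38 in the primary tumor of mouse 6 and at most 0.18 in the other 14.

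**Figure D4:**
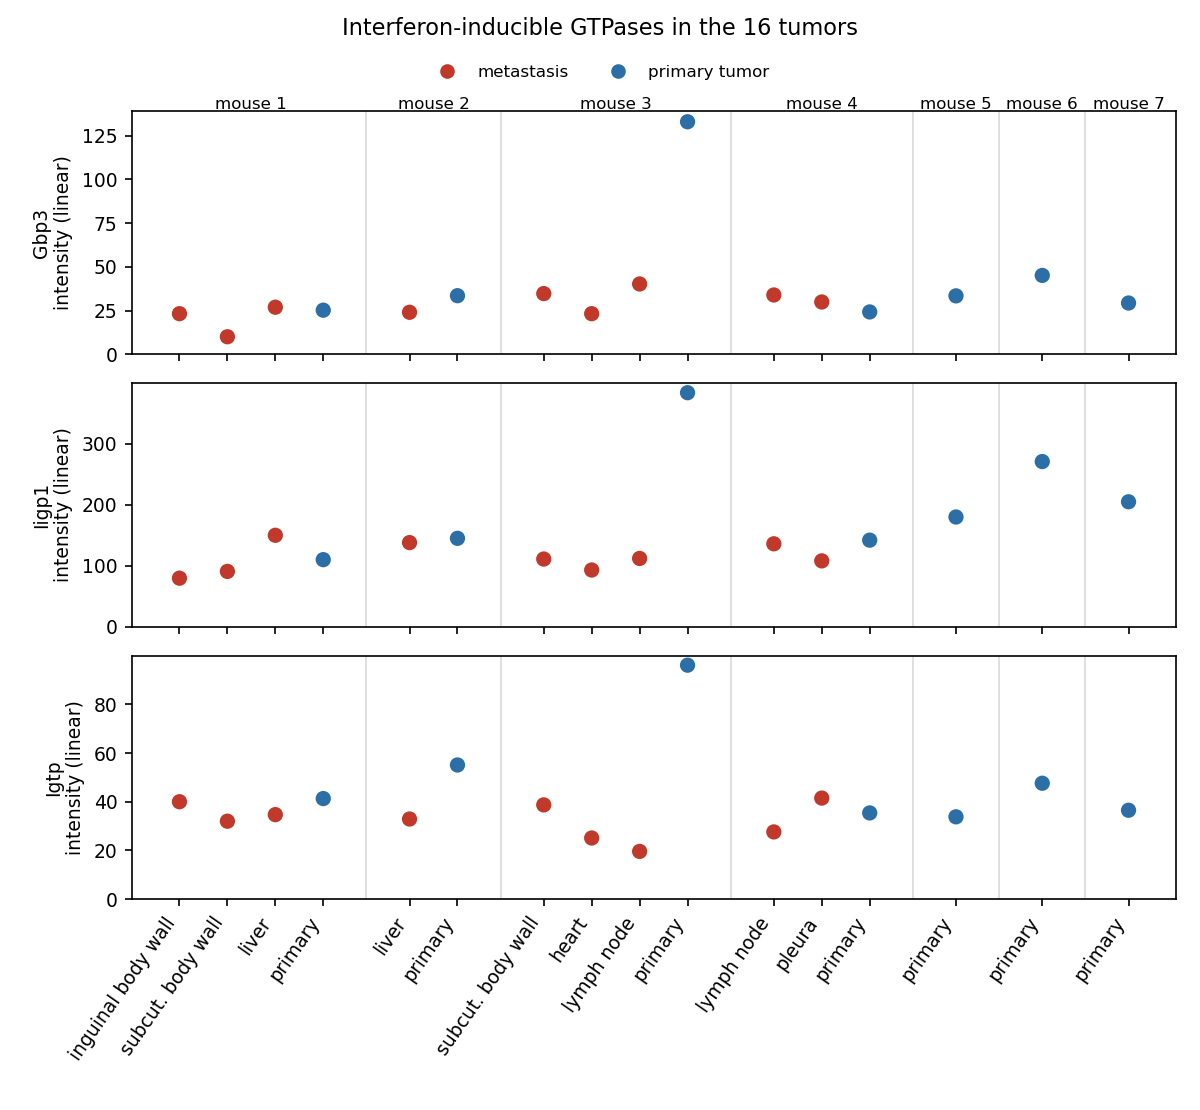
Intensity (linear units) of Gbp3, Iigp1 and Igtp in each of the 16 tumors, by mouse, with metastases in red and primary tumors in blue. The primary tumor of mouse 3 is the highest in each panel (133, 384 and 96.1). The 3 metastases of mouse 3 lie among the tumors of the other mice for Gbp3 and Iigp1. For Igtp its heart and lymph node metastases (25.1 and 19.6) lie below all other tumors.

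Marker sums of immune cells in that tumor lay within the range of the others. The 7 T cell markers summed to 189 in the primary tumor of mouse 3, where the range over all 16 tumors was 144 to 238. Of these markers Cd3e was at 22.3, the highest of the 7 primary tumors (the others had 1 to 6.58), while Cd3d was at the floor of 1 in all 7. The 9 macrophage markers summed to 6009 (range 2114 to 9293), of which Lyz2 gave 2429. The 3 pan-leukocyte markers summed to 536 (range 287 to 1137). Ifng, the gene of interferon gamma, read 26.7 in that tumor, within its range of 10.8 to 30.7. The alveolar type 2 sum did set the tumor apart, at 16734, the lowest of the 7 primary tumors, where the other 6 had 29872 to 44550. Whether the makeup of the tissue had a part in the GTPase levels was not tested beyond these sums.

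A second feature of mouse 3 held in all of its tumors. Ifi202b, a member of the DNA-binding p200 family, had 93.9, 84.6 and 72.9 in the body wall, heart and lymph node metastases of mouse 3, and 93.1 in its primary tumor. In mouse 1 it had 27.5, 22.1 and 39 in the inguinal, subcutaneous and liver metastases, against 19.5, in mouse 2 it had 29.8, against 38.7, and in mouse 4 it had 42.4 and 47.6 in the lymph node and pleura, against 32.1. The primary tumors of mice 5, 6 and 7 had 22.7, 31.1 and 29.6. All 4 tumors of mouse 3 lay above all 12 others, which was so for 2 of the 30 genes (Ifi202b and the dim Ifit2) and for 2.46% of all probe sets. Metastases and primary tumors did not separate (difference 0.16, SE 0.19, adjusted p = 0.813 from limma). This probe set is of a type that can read several related transcripts, so the p200 gene behind it is uncertain.

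Tested as a difference between mice 1 to 4 within the paired fit, Ifi202b passed (F = 21.1, adjusted p = 0.0101 from limma), as did Samhd1 (F = 10.9, adjusted p = 0.0406). These were 2 of the 30 genes, a share near the 5.09% of all probe sets that passed. Samhd1 was high in mouse 4, at 679 and 470 in the lymph node and pleura and 482 in the primary tumor. It was low in mouse 3, at 204, 186, 219 and 210 in the body wall, heart, lymph node and primary tumors. Mouse 1 lay between, at 412, 288 and 301 in the inguinal, subcutaneous and liver metastases, against 306, and mouse 2 had 191 in the metastasis, against 393. The call for Samhd1 was lost without mouse 1, 3 or 4 (adjusted p = 0.0839, 0.408 and 0.286) and without any 1 of 7 metastases (adjusted p of up to 0.119), and its next brightest probe set did not pass (adjusted p = 0.416). That for Ifi202b was lost without mouse 3 (adjusted p = 0.484). Eif2ak2 did not pass (adjusted p = 0.0922), but did with dim probe sets left out (0.0399) and with a variance trend (0.039), and was at 0.943 without mouse 3. The test was chosen after the values had been seen.

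**Figure D5:**
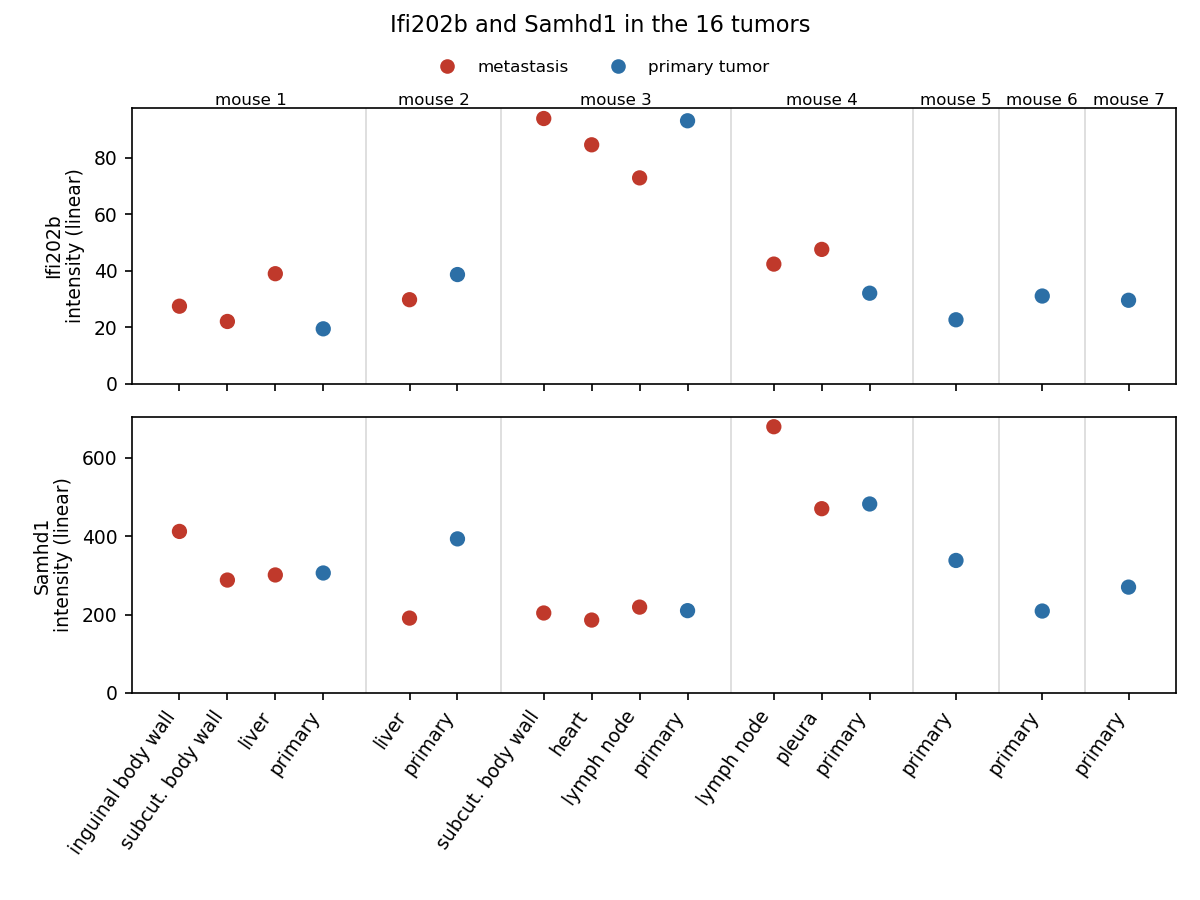
Intensity (linear units) of Ifi202b and Samhd1 in each of the 16 tumors, by mouse, with metastases in red and primary tumors in blue. The 4 tumors of mouse 3 lie at 72.9 to 93.9 for Ifi202b and at most at 47.6 in all other mice, and the 3 tumors of mouse 4 lie at 470 to 679 for Samhd1.

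The primary tumors of mice 5 to 7 were compared with those of mice 1 to 4 at the brightest probe set of each gene. None of the 30 genes passed an adjusted p of 0.05 in limma, where 1.02% of all probe sets did. None had an unadjusted p under 0.01, where 8.41% did. The next brightest probe sets of Trim25 (−0.89, adjusted p = 0.0588) and Samhd1 (−0.53, adjusted p = 0.101) had unadjusted p-values of 0.00115 and 0.006 in limma. At both, every tumor of mice 5 to 7 lay below every primary tumor of mice 1 to 4. Mx1, which blocks influenza replication, read 36.9 (mouse 5), 79.9 (mouse 6) and 33.5 (mouse 7) in these primary tumors, against 16, 25.6, 25.6 and 20.5 in mice 1, 2, 3 and 4. These 3 tumors also exceeded all 9 metastases, in which Mx1 was at most 28. It was the only one of the 30 genes with this order, which 1.45% of all probe sets had, and its difference of 1.10 gave an adjusted p of 0.145. At the brightest probe sets, Bst2 was the only gene below in all 3, which 12.9% of all probe sets were, and Mx1 the only one above, which 7.12% were. Ifi204, a p200 protein, and the interferon-induced Ifi35 were dim throughout, at most 16 and 10.4 in any tumor.

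A probe set that the study's annotation gave to Ifi27, and that is annotated to its relative Ifi27l2a here, read 36.6, 15.1 and 5.6 in the inguinal, subcutaneous and liver metastases of mouse 1, against 1.48, and 2.94 in mouse 2, against 3.4. In mouse 3 it read 13.3, 5.38 and 57.4 in the body wall, heart and lymph node metastases, against 3, and in mouse 4 it read 9.44 and 3.44 in the lymph node and pleura, against 3.55. Primary tumors of mice 5, 6 and 7 read 4.09, 13.2 and 5.26. The inguinal and lymph node metastases of mice 1 and 3 stood out, and the metastases of mouse 2 and of the pleura of mouse 4 did not exceed their primary tumors. Metastases averaged 16.6 ± 18.5 and matched primary tumors 2.86 ± 0.949 (SD, n = 9 and 4). The difference was 1.74 (SE 0.76, adjusted p = 0.425 from limma) and higher in 7 of 9, on values that were mostly under the 25th percentile of the array.

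The pathway around the 30 genes was as level. Of 21 interferon ligands, receptors and signalling genes, 20 were measured, with 6 above and 14 below 0 and a median of −0.09. The highest were Ifna4 (0.61) and Ifng (0.50), both dim, and the lowest the feedback inhibitor Socs3 (−0.43, adjusted p = 0.26) and the transcription factor Irf8 (−0.35, adjusted p = 0.382), which was lower in 9 of 9. Ifnb1, the gene of interferon beta, read 69.5 ± 8.87 in metastases and 59.5 ± 11.7 in matched primary tumors (SD, n = 9 and 4; difference 0.25, adjusted p = 0.494). Of 20 genes of nucleic acid sensing, 11 were measured, with 5 above and 6 below 0 and a median of −0.03. There the highest were Tlr7 (0.68) and Ikbke (0.20) and the lowest Tlr9 (−0.83) and Myd88 (−0.38), with adjusted p-values from limma of 0.356 or above.

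Of 24 genes around PKR, namely its partners, the eIF2 and eIF2B subunits and the integrated stress response, 22 were measured, with 11 above and 11 below 0 and a median of −0.00. Eif2s1, the gene of eIF2 alpha itself, and Eif2b3 were not measured. The other kinases of eIF2 alpha did not follow Eif2ak2. Eif2ak1, the heme-regulated kinase, differed by 0.07 (SE 0.11, adjusted p = 0.872 from limma), Eif2ak3, or PERK, by −0.12 (SE 0.11, adjusted p = 0.745) and Eif2ak4, or GCN2, by 0.07 (SE 0.16, adjusted p = 0.912). Prkra, the protein activator of PKR, differed by 0.05, and Tarbp2, which inhibits it, by −0.04. Among genes downstream of eIF2 alpha, Atf4 differed by −0.05 (SE 0.17), Ddit3 by −0.02 (SE 0.13) and Asns by −0.08 (SE 0.15). The highest of the list were the dim Atf3 (0.83, adjusted p = 0.822) and the eIF2B subunit Eif2b5 (0.20), and the lowest the phosphatase subunit Ppp1r15b (−0.35, adjusted p = 0.308, lower in 9 of 9) and Dnajc3 (−0.17), an inhibitor of PKR.

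Of 44 other interferon-stimulated genes, 34 were measured, with 14 above and 20 below 0 and a median of −0.06. None passed an adjusted p of 0.05. At an unadjusted p under 0.01, 2 were lower, where 2.84% of all probe sets were. These were Irgm2 (above) and Parp12 (−0.46, SE 0.14, adjusted p = 0.216), an ADP-ribosyltransferase that was lower in 9 of 9 metastases. The highest difference was that of Ifitm2 (0.54, SE 0.20, adjusted p = 0.334), a neighbour of Ifitm3 in function, followed by Oas1c (0.30), and the lowest after Irgm2 was Ddx60 (−0.78, SE 0.69), which is dim.

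None of the cell type markers passed an adjusted p of 0.05 between metastases and matched primary tumors. At an unadjusted p under 0.01, 6 markers were lower, where 2.84% of all probe sets were. Of the 9 measured macrophage markers 2 were lower, Cd68 (−0.80) and Lyz2 (−1.09). Of the 6 measured alveolar type 2 markers 3 were lower, Slc34a2 (−2.27, adjusted p = 0.0582 from limma), Sftpd (−2.41, adjusted p = 0.0725) and Sftpa1 (−2.37). Epcam was 1 of the 6 epithelial markers, and the other marker lists had none. In every primary tumor Lyz2 was the largest single reading of the macrophage sum. The macrophage markers had no common direction: of 9, 5 were above 0 and 4 below, with a median of 0.16. The macrophage sum was 2114 to 9293 in metastases and 4037 to 6009 in matched primary tumors, and the pan-leukocyte sum 287 to 1137 and 486 to 572. The lymph node metastasis of mouse 3 held the highest macrophage sum (9293), pan-leukocyte sum (1137) and neutrophil sum (3514, where all other tumors had at most 472). By mouse, the pan-leukocyte sum was 287, 313 and 385 in the inguinal, subcutaneous and liver metastases of mouse 1, against 486, and 289 in the metastasis of mouse 2, against 548. It was 694, 508 and 1137 in the body wall, heart and lymph node metastases of mouse 3, against 536, and 647 and 499 in the lymph node and pleura of mouse 4, against 572. The sum was higher than in the primary tumor in 3 of the 9 metastases and lower in 6. Whether leukocyte content had a part in the Eif2ak2 result was not tested. The alveolar type 2 sum was 981 to 26324 in metastases and 16734 to 36366 in matched primary tumors, and the part of these cells in the result was not tested. Eif2ak2 differed by 1.62 without the lymph node metastases (adjusted p = 0.116), 1.55 without the liver metastases (adjusted p = 0.234) and 1.46 without the body wall metastases (adjusted p = 0.237).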

How the data were processed

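RNA of 9 metastases and 7 primary tumors was hybridized to 1 array each. According to the methods, the authors normalized the arrays to an invariant set and computed model-based intensities from perfect match minus mismatch differences in dChip, and the deposited values are these linear intensities. Of 22690 probe sets, 64 controls were left out. Intensities under 1 were set to 1 (3.71% of values lay at or under it) and taken to log2. Gene symbols came from the platform annotation, with 20380 probe sets of 1 symbol, 691 of several and 1555 of none.

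The mouse entered as a block when metastases were compared with matched primary tumors (limma 3.58.1 under R 4.3.3), since the labels tie each metastasis to the primary tumor of the same animal. The residual degrees of freedom were 8. All 16 tumors were fitted with the mouse as a random block (consensus correlation 0.238), and primary tumors of mice 5 to 7 were fitted against those of mice 1 to 4. P-values were adjusted by Benjamini-Hochberg over 22626 probe sets. The fit was tested on simulated data. Metastases of 1 mouse are not independent animals, and the number of arrays limits the precision. An intensity is not comparable between probe sets.

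Every tumor's value was given for Eif2ak2, for genes past an unadjusted p of 0.01, for the 3 largest differences in each direction, for the probe set of Ifi27l2a and for the brightest gene. Genes of other lists, cell type markers included, were named if past that p, as the 2 highest and 2 lowest of a pathway list, or as kinases of eIF2 alpha. Other genes given by tumor or named from the lists (among them Samhd1, Mx1, Iigp1, Ifi47, Gbp6, Gbp7, Cd3d, Cd3e, Ifnb1, Prkra, Tarbp2, Atf4, Ddit3 and Asns) were chosen after their values were seen. The genes and lists were chosen with earlier results of these data known. The test between mice, the second Eif2ak2 probe set and the next brightest probe sets of Trim25 and Samhd1 were added after the values were seen. Figures were drawn with matplotlib 3.10.9.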

Additional observations from a re-analysis of the deposited data

Results flagged for a closer look

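Samples were compared within the metastases and within the primary tumors for each of the 30 genes, and a tumor far from the rest of its group was found in 5 of 60 groups (8.33%), where chance gives about 1 in 20. Gbp3 was at 10 in the subcutaneous body wall metastasis of mouse 1, where the next metastasis had 23.2, and at 133 in the primary tumor of mouse 3, where the next primary tumor had 45.1. The primary tumor of mouse 6 stood apart for Usp18 (116, next 69.4) and for Irf9 (1.3, next 15.2). Ifi35 read 10.4 in the lymph node metastasis of mouse 3, where the next metastasis had 3.14.

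Among the 30 genes, Oas2 was flagged for ratios that differed in sign by site. Its log2 ratio over the matched primary tumor was −0.58 to −0.04 in the 4 thoracic metastases (heart, mediastinal lymph nodes and pleura) and 0.24 to 0.59 in the 5 distant ones (body wall and liver), a thoracic minus distant difference of −0.67. The difference was not tested, and 3 of the 4 mice contributed to only 1 side of it. The share of all probe sets with such an order was not counted, so no result by site is drawn from it.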

How the results depend on the processing

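The rise of Eif2ak2 (1.57, adjusted p = 0.0414 from limma) kept its direction at the brightest probe set under every alternative, and its call under fewer of them. Adjusted p stayed at 0.05 or below with a floor at the 10th percentile (0.05), quantile normalization (0.0351), arrays centred on their median (0.0283), dim probe sets left out (0.00971), a variance trend (0.00789) and the methods' t-test (0.0275). It was lost with no replicate block, that is without the pairing by mouse (1.66, adjusted p = 0.165), with 1 mean ratio per mouse (1.56, 0.368), over 16 tumors (1.19, 0.1), with a floor at the 25th percentile (1.57, 0.0608) and with the mean of all probe sets (0.78, 0.12). It was lost as well without lymph node (1.62, 0.116), liver (1.55, 0.234) or body wall metastases (1.46, 0.237). The other Eif2ak2 probe set gave −0.01 (0.987). Leaving out 1 mouse or 1 metastasis gave 1.17 to 1.92. The cause of these changes was not tested.

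The number of the 30 genes called was 0 under each setting that lost Eif2ak2, 2 with the methods' t-test (Eif2ak2 and Ifih1) and 0 to 1 with 1 mouse or metastasis left out. The median of the other 29 genes stayed between −0.24 and −0.02. Over 16 tumors Eif2ak2 passed with dim probe sets left out (1.22, adjusted p = 0.0472) and was 0.86 to 1.38 with 1 primary tumor left out. Between mice, 2 genes passed, against 3 with a floor at the 10th percentile (Ifit2 added, adjusted p = 0.0264), 3 with dim probe sets left out and 3 with a variance trend (Eif2ak2 added in both, 0.0399 and 0.039), 1 with a floor at the 25th percentile, 1 with the mean of all probe sets and 0 to 2 with 1 mouse or metastasis left out. For the 29 other genes, 1 of 776 values was called in an alternative, 60 uncalled values changed sign, and 14 genes kept their sign in all 27 settings.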
